A study of Mus musculus with 10 samples.

Results

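Transcripts of the laminin chains Lama2, Lama3, Lama4, Lama5, Lamb1, Lamb2, Lamb3 and Lamc1 and of the laminin-binding glycoprotein nidogen-1 (Nid1) were followed in mouse mammary fibroblasts and tumor cells grown in gels. The 9 genes were taken by symbol, and each matched 1 row of a count table that held 55486 genes. Normal fibroblasts (NFs) were sorted from mammary tissue of mTmG mice (FVB/n background, 8 weeks of age), in which every cell carries a red membrane Tomato reporter that Cre switches to green. Several mice were pooled for a sort, and cells with surface EpCAM, CD49f, CD45 or CD31 were left out. NFs were separated by the surface protein CD26, and CD26+ NFs were then switched to green with adeno-Cre. CD26- NFs were not given the virus, so subset and virus exposure cannot be told apart. Tumor cells were the lines 13-MCB-17 and 10-SJK-221 of a mouse model of invasive lobular carcinoma (ILC), in which Cre driven by the Wap promoter of mammary epithelium deletes floxed Cdh1, the E-cadherin gene. The gels were made of collagen and basement membrane extract (BME) and were cultured for 7 days before cells were sorted by color.

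CD26- and CD26+ NFs were mixed in equal parts in gel 1 without tumor cells, in gel 4 with line 13-MCB-17 and in gel 5 with line 10-SJK-221. Gel 2 held line 13-MCB-17 alone and gel 3 held line 10-SJK-221 alone. This gave 1 library each of CD26- and CD26+ NFs alone, and 2 libraries each of co-cultured CD26- NFs, co-cultured CD26+ NFs, tumor cells alone and co-cultured tumor cells. Only 1 gel held NFs alone, so the culture condition cannot be told apart from that gel, and in gels 4 and 5 the tumor line cannot be told apart from the gel. Nothing in the labels says that libraries came from separate animals, so p-values measure the spread between these libraries, which may be technical. In sorted populations measured in bulk, fewer cells of a type and less RNA per cell cannot be told apart.

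Laminins are cross-shaped proteins of 1 alpha, 1 beta and 1 gamma chain that polymerize into the first sheet of a basement membrane, the thin matrix on which epithelium rests and which surrounds muscle, fat and vessels. The alpha chain sets which receptors bind. Lama3 and Lamb3 encode chains of the laminin that anchors epithelium through hemidesmosomes, Lama5 the alpha chain of most mature epithelial basement membranes, Lama2 that of muscle and nerve, and Lama4 that of vessels, fat and other mesenchyme. Lamb1, Lamb2 and Lamc1 encode the beta and gamma chains shared by most laminins, and nidogen-1 links the gamma-1 chain to the collagen IV network. In the mammary gland, laminin under the epithelium is needed for its polarity and milk production. BME is itself rich in laminin and nidogen protein, in every gel alike, and the values below are of RNA only.

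The start regions of a pair of members high in tumor cells (Lama5, Lamb3), a member high in NFs (Nid1) and a member at similar levels in both cell types when grown alone (Lamb1) are shown, because these levels are the main contrast among the members. Each line is the 250 bases upstream of the start RefSeq gives, 5′ to 3′ on the gene's strand, with the sequence from RefSeq on build GRCm38.p6. The window of Lama5 lies at chr2:180225860-180226109 (minus strand), of Lamb3 at chr1:193301744-193301993 (plus strand), of Nid1 at chr13:13437352-13437601 (plus strand) and of Lamb1 at chr12:31265043-31265292 (plus strand). Capitals mark matches, on either strand, to 4 motifs. The first is the site of the AP-1 family of transcription factors, with the letters TGANTCA, and the second is the TATA box, searched as TATAAA. The third is the box bound by the factor NF-Y, whose letters are CCAAT, and the last is the GC box of the Sp family, searched as GGGCGG.
Lama5: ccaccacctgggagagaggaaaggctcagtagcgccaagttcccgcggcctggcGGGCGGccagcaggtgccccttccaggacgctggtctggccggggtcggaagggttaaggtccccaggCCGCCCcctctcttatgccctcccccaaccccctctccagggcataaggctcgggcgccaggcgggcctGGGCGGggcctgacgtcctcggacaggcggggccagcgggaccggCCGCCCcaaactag
Lamb3: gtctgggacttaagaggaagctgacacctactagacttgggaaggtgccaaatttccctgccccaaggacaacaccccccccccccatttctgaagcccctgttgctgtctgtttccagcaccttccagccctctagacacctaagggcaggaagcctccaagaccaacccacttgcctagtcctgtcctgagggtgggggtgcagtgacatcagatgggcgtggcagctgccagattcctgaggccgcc
Nid1: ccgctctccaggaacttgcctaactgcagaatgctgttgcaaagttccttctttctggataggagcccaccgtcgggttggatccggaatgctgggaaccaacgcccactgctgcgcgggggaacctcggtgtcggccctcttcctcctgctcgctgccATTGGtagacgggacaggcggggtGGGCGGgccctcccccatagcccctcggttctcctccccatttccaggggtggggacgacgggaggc
Lamb1: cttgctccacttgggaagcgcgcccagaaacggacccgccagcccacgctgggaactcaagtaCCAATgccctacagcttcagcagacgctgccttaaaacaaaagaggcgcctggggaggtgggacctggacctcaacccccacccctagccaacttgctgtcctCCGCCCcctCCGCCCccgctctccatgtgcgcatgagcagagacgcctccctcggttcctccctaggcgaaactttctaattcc

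Windows matched for 6 of the 9 members (these 4, Lama2 and Lamb2). Of 32851 windows of the same length, 6.75% held the AP-1 letters, 12.4% the TATA box letters, 33.8% the CCAAT letters and 32.7% the GC box letters, and the median GC content was 52.4%. The Lama5 window had 4 GC boxes and a GC content of 72.4%. The Lamb1 window had 2 GC boxes and 1 CCAAT box (62% GC), and the Nid1 window had 1 of each (64.4% GC). None of the 4 motifs matched in the windows of Lamb3 (58.8% GC), Lama2 (47.2% GC) or Lamb2 (43.6% GC). The AP-1 and TATA letters matched in none of the 6 windows. A match is a description of letters and no evidence of binding, and RefSeq gives 2 starts of Lamb3, of which the window of the more upstream one is shown. The windows of Lamb3 and Lama2 lie inside the wider gene spans given below, which begin further upstream.

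Libraries held 14142334 to 18408940 counts. Values are given as counts scaled to a library total of 1000000 (CPM). A count of 0 allows up to 3 counts, or 0.163 to 0.212 CPM depending on the library, for counting error only. Of 9 fibroblast markers such as Col1a1, Dcn and Pdgfrb, 9 reached 1 CPM in every NF library, and their summed level was 69566 to 74875 CPM in NFs alone, 23351 to 41600 CPM in co-cultured NFs and 38.7 to 178 CPM in tumor cells. The 12 epithelial markers such as Epcam, Krt8 and Krt18 summed to 4498 to 5871 CPM in tumor cells and to 0.931 to 1.12 CPM in NFs alone, with 7 of them at 0 in both libraries. In co-cultured NFs they summed to 124 to 333 CPM, and none was at 0. Pericyte or smooth muscle markers summed to 63.6 to 91.4 CPM in NFs alone, against 197 to 462 CPM next to tumor cells. The higher sums came from 2 of the 6 markers, Cspg4 (2.48 and 5.97 CPM alone, 59.7 to 175 CPM co-cultured) and Notch3 (28.3 and 68.9 CPM alone, 125 to 271 CPM co-cultured). The defining pericyte marker Rgs5 was at 9.25 and 6.11 CPM in NFs alone, beside 1.88 to 6.22 CPM next to tumor cells, and Myh11, Abcc9 and Kcnj8 overlapped between the cultures. Endothelial markers summed to at most 24.5 CPM in every library, myoepithelial or basal markers were at 1.80 to 5.12 CPM in NFs and 61.1 to 104 CPM in tumor cells, and immune markers were at 10.2 to 13.8 CPM in NFs alone, 22.0 to 58.6 CPM next to tumor cells and 37.7 to 301 CPM in tumor cells. Cd68, of 5 immune markers, and Pecam1, of 6 endothelial markers, were higher in each co-cultured NF library than in NFs alone. Not all others moved this way, and Emcn was at 0 in every co-cultured NF library. Among fibroblast markers, Col1a1, Col1a2, Col3a1, Pdgfra and Lum were lower in each co-cultured NF library than in NFs alone. Thy1 was higher, and Dcn, Pdgfrb and Fap overlapped. The epithelial marker Cdh1 had 239 and 269 CPM in the lines grown alone and 144 and 140 CPM in co-culture.

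To ask which cell type made which chain, NFs and tumor cells that had never shared a gel were compared first. Lama2, Lama4 and Nid1 were NF transcripts, Lama3, Lama5 and Lamb3 were tumor cell transcripts, and Lamb1, Lamb2 and Lamc1 were abundant in both. In a comparison of the 2 tumor libraries with the 2 NF libraries (edgeR quasi-likelihood test over all genes, with Benjamini-Hochberg adjusted p under 0.05 as the threshold), 3 of the 9 members were higher in tumor cells, against 21.3% of the 14404 genes tested, and 4 were lower, against 25.9%. The median log2 difference of the members was -0.20, beside -0.05 over all genes tested. Lamb1 and Lamc1 did not pass. NFs and tumor cells grown alone came from different gels, so cell type and gel cannot be told apart in this comparison. The spread in this test is that between the NF subsets and between the tumor lines, and not between replicates. Lama3 and Lamb3 reached the filter on low counts only through tumor cells, and Lama2, Lama4 and Nid1 only through NFs, so these 5 had to differ and the counts are a description. The plot of CPM by library shows these 3 patterns.

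**Figure D1:**
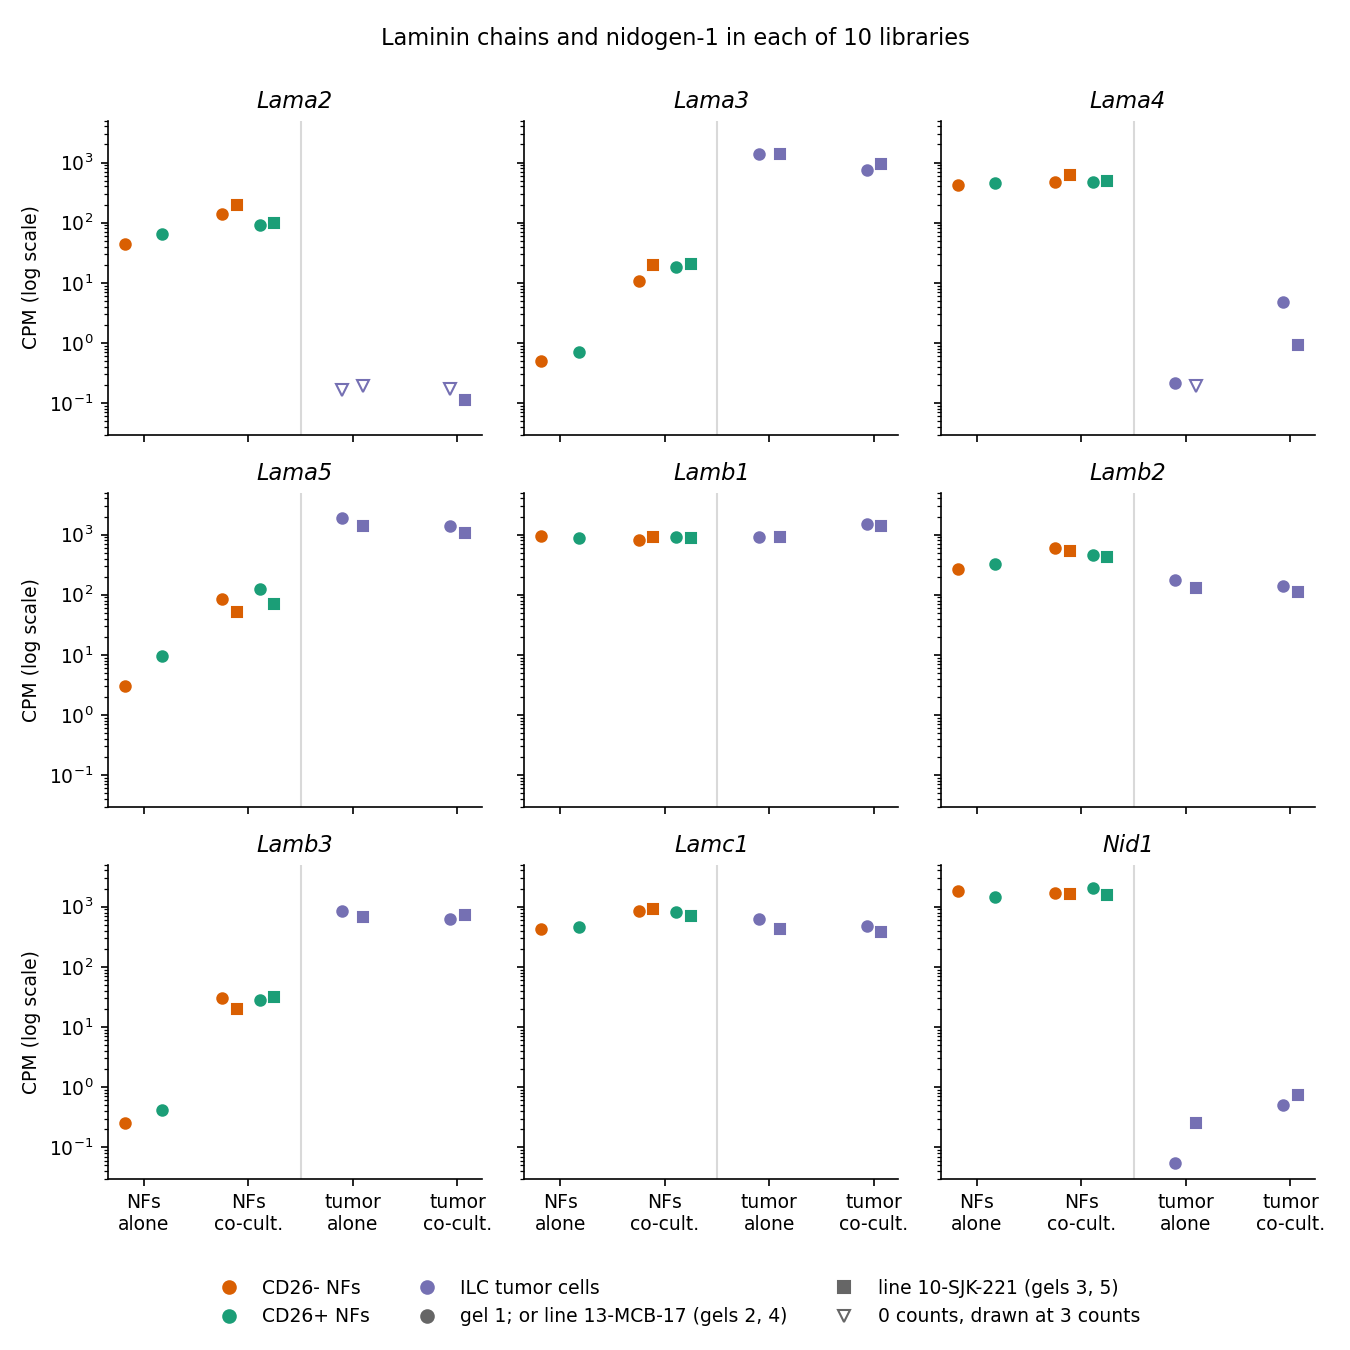
CPM of each of the 9 members (log axis) in the 10 libraries, by cell type and culture, with color for the sorted population and shape for the tumor line in the gel. Each point is 1 library and there are no error bars, and an open triangle is a count of 0 drawn at 3 counts. In tumor cells Lama2 and Nid1 were at most 0.741 CPM, and Lama4 at most 4.81 CPM. Lama3, Lama5 and Lamb3 were under 10 CPM in NFs alone and between 10.8 and 125 CPM in co-cultured NFs. Lamb1, Lamb2 and Lamc1 stayed above 100 CPM in every library.

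Among the alpha chains, Lama4 (chr10:38965515-39110188, GRCm38, plus strand) was the main one of NFs. It had 427 CPM in CD26- and 456 CPM in CD26+ NFs alone. Next to tumor cells, CD26- NFs had 483 (gel 4) and 620.2 CPM (gel 5), and CD26+ NFs had 471 and 501 CPM. Tumor cells alone had 4 counts (0.217 CPM) in line 13-MCB-17 and 0 counts in line 10-SJK-221. The NF and tumor values did not overlap, and the ratio of pooled CPM, NFs to tumor cells, each grown alone, was 3757 (exact 95% counting interval 1467 to 13791).

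Lama2 (chr10:26980036-27619758, minus strand), the alpha chain best known from muscle, was the second alpha chain of NFs grown alone. It had 43.7 and 64.2 CPM in CD26- and CD26+ NFs alone. It had 138 and 199.986 CPM for co-cultured CD26- NFs, with 92.6 and 99.4 CPM for their CD26+ counterparts. It had 0 counts in the tumor libraries of gels 2, 3 and 4 and 2 counts in that of gel 5. The level in NFs alone was at least 283-fold higher than in tumor cells alone, with the latter set at 3 counts per library. Of its exonic bases, 3.86% overlap a gene on the opposite strand (Gm48084), and the use of strand in counting is not given in the sources used here.

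Lama3 (chr18:12333819-12583013, plus strand) and Lama5 (chr2:180176373-180225859, minus strand) were the alpha chains of tumor cells. Lama3 had 1392 CPM in line 13-MCB-17 and 1389 CPM in line 10-SJK-221, each grown alone, and 8 and 10 counts (0.497 and 0.702 CPM) in NFs alone. Its pooled ratio, tumor cells to NFs, was 2346 (1484 to 3958). Lama5 had 1863 and 1393 CPM in the same tumor libraries and 3.04 and 9.41 CPM in NFs alone, a pooled ratio of 273 (236 to 317). In counts, NFs alone held 49 and 134 of Lama5, so its level there was low but above the floor. Of the exonic bases of Lama3, 1.83% overlap a gene on the opposite strand.

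Levels between genes were compared per kilobase of merged exons (CPM per kb). Lama4 made up 88.3% of the alpha chain signal in CD26- and 87.5% in CD26+ NFs alone, and 66.9% to 73.4% in co-cultured NFs. Lama5 made up 0.668% and 1.91% in NFs alone and 6.40% to 18.8% in co-cultured NFs. Of the co-cultured Lama5 counts, 18.6% to 67.5% were left after the subtraction of tumor RNA described below. In co-cultured CD26+ NFs Lama5 exceeded Lama2, with 18.8% against 9.71% in gel 4 and 11.0% against 10.8% in gel 5. In tumor cells Lama5 and Lama3 divided the alpha chain signal. They had 55.8% and 44.2% in line 13-MCB-17 alone and 48.6% and 51.4% in line 10-SJK-221 alone. The order of Lama3 and Lama5 differed between these single libraries of the lines. Co-cultured tumor cells had 63.1% Lama5 with line 13-MCB-17 and 52.2% with line 10-SJK-221.

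**Figure D2:**
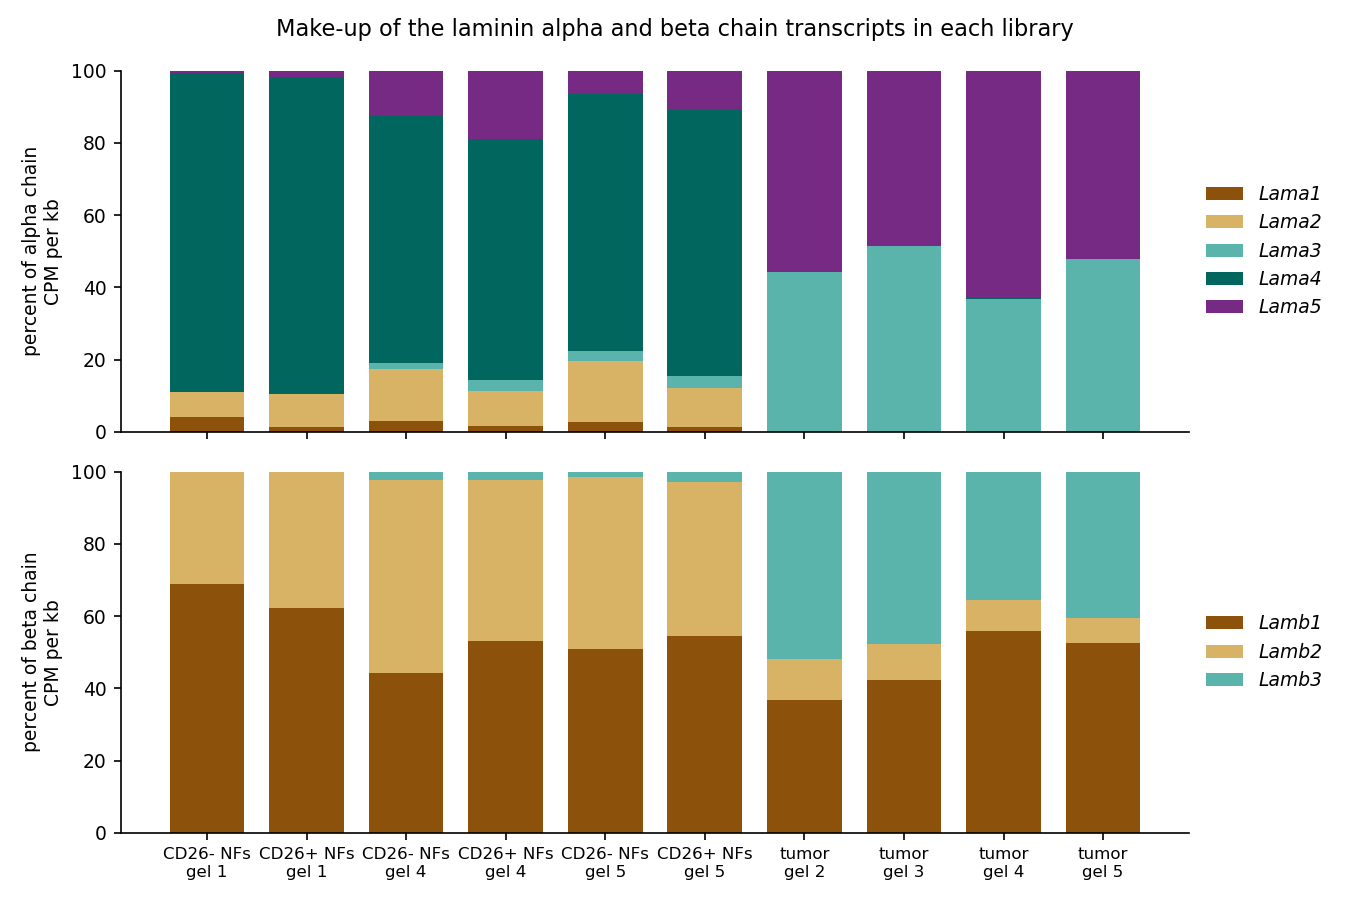
Share (percent of CPM per kb) of each gene among the alpha chains (top) and beta chains (bottom) in each library, as stacked bars from 0 to 100, with 6 NF libraries on the left and 4 tumor libraries on the right. Lama4 fills 66.9% to 88.3% of the alpha bars of NFs and none visibly of the tumor cells, and Lamb3 fills 35.6% to 51.9% of the beta bars of tumor cells and at most 2.90% of those of NFs.

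Of the beta chains, Lamb3 (chr1:193207699-193343878, plus strand), partner of Lama3 in hemidesmosomes, was a tumor cell transcript. It had 853 and 678 CPM in the lines grown alone, against 634 and 718 CPM next to NFs. NFs alone held 4 and 6 counts (0.248 and 0.421 CPM), and the pooled ratio was 2345 (1275 to 4890). It made up 51.9% of the beta chain signal per kb in line 13-MCB-17 alone and 47.8% in line 10-SJK-221 alone.

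Lamb1 (chr12:31265234-31329644, plus strand), the beta chain of most laminins, was at similar levels in both cell types grown alone. It had 958 and 888 CPM in NFs, against 904 and 898 CPM in tumor cells (log2 difference, tumor minus NF, -0.20, SE 0.216, adjusted p = 0.482). In co-cultured tumor cells it reached 1495 CPM with line 13-MCB-17 and 1397 CPM with line 10-SJK-221, above every other library. The 4 co-cultured NF libraries had 811 to 925 CPM.

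Lamb2 (chr9:108479736-108490530, plus strand), the beta chain of vessel walls, muscle and kidney, was higher in NFs. It had 267 and 329.9 CPM in NFs alone, against 173 and 129 CPM in the tumor lines alone, which did not overlap (log2 difference -1.13, SE 0.243, adjusted p = 0.0122). Without the CD26+ NF library of gel 1 the adjusted p was 0.0596, and without line 10-SJK-221 of gel 3 it was 0.058. Per kb, Lamb1 exceeded Lamb2 2.202-fold and 1.65-fold in NFs alone and 3.20-fold and 4.26-fold in tumor cells alone.

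Lamc1 (chr1:153218922-153332786, minus strand), the gamma chain that binds nidogen, had 431 and 462 CPM in NFs alone, against 618 and 419 CPM in the tumor lines alone. The groups overlapped, and the log2 difference was 0.06 (SE 0.268, adjusted p = 0.867).

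Nid1 (chr13:13437551-13512269, plus strand) was the most abundant member of NFs per kb. It had 1850.3 and 1422 CPM in CD26- and CD26+ NFs alone, 1702 and 1610.3 CPM for co-cultured CD26- NFs, with 2036 and 1560.3 CPM for their CD26+ counterparts. Tumor cells alone held 1 and 4 counts, and co-cultured tumor cells 9 and 13 (at most 0.741 CPM). The pooled ratio, NFs to tumor cells, each grown alone, was 11256 (4823 to 34666). Of its exonic bases, 2.06% overlap a gene on the opposite strand.

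The order of levels per kb in NFs alone (mean ± SD, n = 2) was Nid1 with 236 ± 43.7, Lamb1 with 93.1 ± 5.01, Lamc1 with 53.9 ± 2.67, Lamb2 with 49.1 ± 7.33, Lama4 with 36.6 ± 1.71 and Lama2 with 3.30 ± 0.884. The SD here is between the CD26- and CD26+ libraries of gel 1 and not between replicates. Lamc1 and Lamb2 lay within it of each other. In tumor cells alone (n = 2) the order was Lama5 with 143 ± 29.2, Lama3 with 129 ± 0.191, Lamb3 with 116 ± 18.8, Lamb1 with 90.9 ± 0.398, Lamc1 with 62.7 ± 17.1 and Lamb2 with 24.9 ± 5.11. This SD is between the 2 lines and not between replicates, and the neighbors Lama5, Lama3 and Lamb3 did not differ beyond it.

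Inside the shared gels 4 and 5, with gel as a term, all 9 members passed the test. Lama3, Lama5, Lamb3 and Lamb1 were higher in tumor cells, 4 of 9 against 22.8% of the 15098 genes tested, and 5 were lower, against 27.9%. Lama2 and Nid1 held at most 13 counts in either tumor library and were high in NFs, so they had to differ and their part of the 5 is no support. The log2 differences, tumor minus NF, were 5.42 for Lama3, 4.43 for Lamb3 and 3.73 for Lama5 (SE 0.212, 0.191 and 0.189), against 11.01, 10.99 and 7.90 between the cell types grown alone. For Lamc1 the difference was -1.14 (SE 0.235, adjusted p = 0.00693) and for Lamb2 it was -2.22 (SE 0.251, adjusted p = 0.00053). Lamb1 was higher in tumor cells by 0.51 (SE 0.167, adjusted p = 0.0411). That call was lost with RLE scaling (0.46, adjusted p = 0.0651) and with no filter on low counts (0.50, adjusted p = 0.0565). It was also lost without gel 4 (difference 0.33) or gel 5 (difference 0.65). The comparison in shared gels and that of cells grown alone use different libraries of the same cell types. Epithelial markers in the co-cultured NFs are set beside Lama3, Lamb3 and Lama5 below. The part of tumor RNA in their smaller differences was not tested here.

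To ask whether NFs changed these genes next to tumor cells, co-cultured NFs of both subsets were compared with NFs alone. The epithelial chains Lama3, Lama5 and Lamb3 rose from under 10 CPM to between 10.8 and 125 CPM, and Lama2, Lamb2 and Lamc1 rose by 0.79 to 1.26 on the log2 scale. With culture and subset as terms, 6 of the 9 members rose, against 25.9% of the 15013 genes tested, and 0 fell, against 22.9% (the 6 were also the count with an unadjusted p under 0.05, and DESeq2 likewise gave 6 and 0). Lama3 and Lamb3 held at most 10 counts in either library grown alone and passed the filter on low counts through the co-cultured libraries, where they are high, so they had to differ and their part of the count is no support. The median log2 change of the members was 0.91, beside 0.02 over all genes tested. Lama4, Lamb1 and Nid1 did not pass.

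Among the shared chains, Lamc1 rose from 431 and 462 CPM to 839 and 915 CPM for CD26- NFs, with 814 and 687 CPM for their CD26+ counterparts. All 4 co-cultured libraries lay above both libraries grown alone (log2 change 0.91, SE 0.161, adjusted p = 0.00138). Lamb2 rose from 267 and 329.9 CPM to 600.1 and 529 CPM for CD26- NFs, with 464 and 423 CPM for their CD26+ counterparts, again without overlap (0.79, SE 0.176, adjusted p = 0.00497). For Lama2, given above by library, the log2 change was 1.26 (SE 0.306, adjusted p = 0.00735). Without the CD26- NF library of gel 1, the calls of Lama2 (0.61, adjusted p = 0.0793) and Lamb2 (0.46, adjusted p = 0.108) were lost, and 4 of the 9 members passed. Of the pericyte or smooth muscle markers, Cspg4 and Notch3 were also higher in every co-cultured NF library and the other 4 overlapped with NFs alone, and their part in the rise of Lama2, Lamb2 and Lamc1 was not tested.

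Lama4 had a log2 change of 0.28 (SE 0.166, adjusted p = 0.19), Nid1 of 0.13 (SE 0.176, adjusted p = 0.57) and Lamb1 of -0.02 (SE 0.145, adjusted p = 0.917). The ratio of Lamb1 to Lamb2 per kb was 0.829 and 1.07 in co-cultured CD26- NFs and 1.19 and 1.28 in co-cultured CD26+ NFs, below the 2.202 and 1.65 of NFs alone. Nid1 to Lamc1 per kb was 2.10 to 2.98 in co-cultured NFs, below the 5.12 and 3.67 of NFs alone. The 4 co-cultured values lay under both values of NFs alone in either ratio. These ratios are a description without a test.

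**Figure D3:**
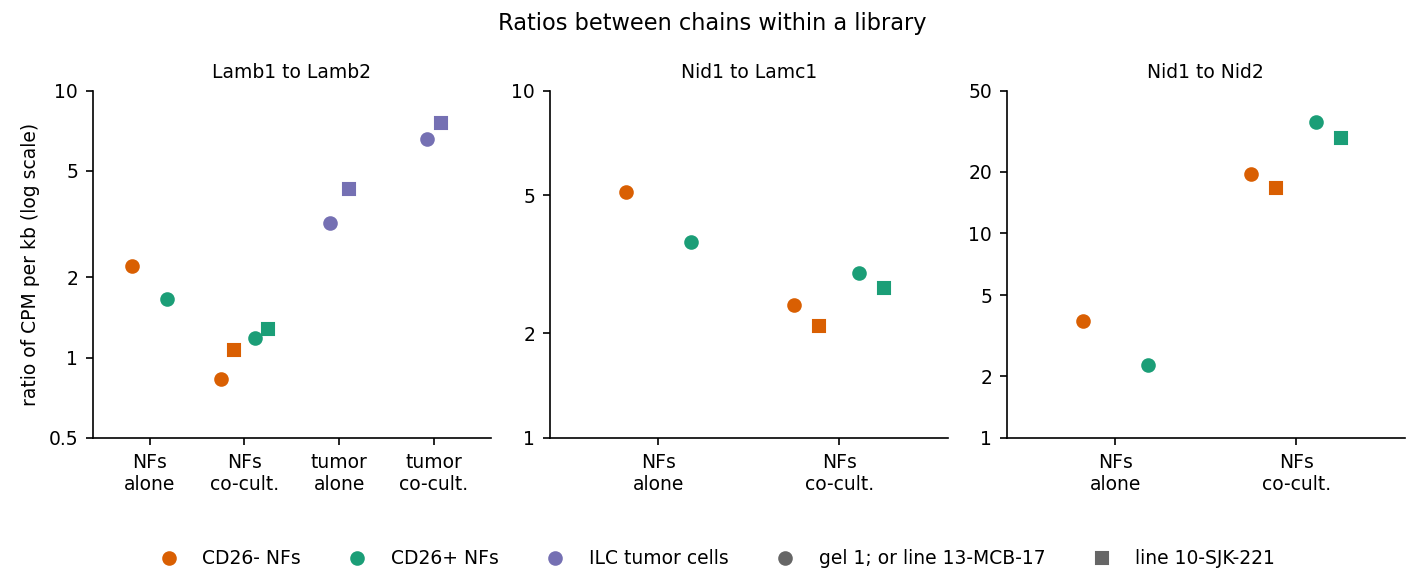
Ratios of CPM per kb (log axes) of Lamb1 to Lamb2, Nid1 to Lamc1 and Nid1 to Nid2, with 1 point per library and no error bars, colored by sorted population. Lamb1 to Lamb2 was 0.829 to 1.28 in co-cultured NFs and 6.58 and 7.58 in co-cultured tumor cells, and Nid1 to Nid2 was 2.28 and 3.75 in NFs alone and between 16.7 and 35.0 in co-cultured NFs.

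Lama3 rose from 0.497 and 0.702 CPM in NFs alone to 10.8 and 19.9 CPM for CD26- NFs, with 18.3 and 20.5 CPM for their CD26+ counterparts (gels 4 and 5). Lamb3 rose from 0.248 and 0.421 CPM to 30.2 and 19.7 CPM for CD26- NFs, with 28.1 and 31.3 CPM for their CD26+ counterparts. Lama5 rose from 3.04 and 9.41 CPM to 84.1 and 52.5 CPM for CD26- NFs, with 125 and 71.1 CPM for their CD26+ counterparts. No co-cultured value of the 3 genes overlapped those of NFs alone. Their log2 changes were 4.90 (SE 0.392, adjusted p = 1.08e-05), 6.38 (SE 0.325, adjusted p = 8.4e-07) and 3.88 (SE 0.356, adjusted p = 2.38e-05), in the same order of genes. As ratios of pooled CPM, the levels were 29.1-fold, 82.2-fold and 13.7-fold those of NFs alone (95% counting intervals 18.4 to 49.4, 44.6 to 172 and 11.8 to 16.0).

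The same libraries also carried epithelial markers, and these values stand beside the rise of the 3 chains. Each marker's CPM in a co-cultured NF library was set against that of the tumor cells of its gel. Over the 12 epithelial markers the median was 1.97% (range 1.66% to 9.79%) in CD26- NFs of gel 4, 3.10% (2.08% to 12.7%) in CD26+ NFs of gel 4, 2.19996% (0.827% to 9.19%) in CD26- NFs of gel 5 and 5.36% (2.57% to 17.7%) in CD26+ NFs of gel 5. Lama3 stood at 1.42%, 2.41%, 2.14% and 2.203% in the same order. Lamb3 stood at 4.77%, 4.44%, 2.75% and 4.35%, and Lama5 at 6.07%, 9.03%, 4.86% and 6.59%. Lama3 was thus below the marker median in all 4 libraries, Lamb3 above it in 3 of 4, and Lama5 above it in all 4. The highest marker was Krt19 in every library. Lama5 stood under it in all 4 and above the other 11 markers in both libraries of gel 4, where these reached 3.58% and 7.74% (CD26- and CD26+ NFs), and Lamb3 stood above those 11 in CD26- NFs of gel 4.

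When the median share of the same gel's tumor profile was subtracted from each co-cultured NF library, 0 counts of Lama3 were left in all 4. Of Lama5, 67.5% and 65.7% of the counts were left in gel 4 (CD26- and CD26+ NFs) and 54.7% and 18.6% in gel 5. Of Lamb3, 58.7% and 29.9% were left in gel 4 and 20.1% and 0% in gel 5. On the subtracted counts Lama5 (3.05, adjusted p = 0.00661) and Lamb3 (4.47, adjusted p = 0.0333) still passed in the comparison of all NFs (within each subset Lamb3 did not), and Lama3 was no longer tested. Lamc1 kept 97.1% to 99.1% of its counts and rose by 0.95 (adjusted p = 0.00136), and Lama2 and Lamb2 rose by 1.33 and 0.84. The part of tumor RNA in the rise was not tested beyond this subtraction, which rests on the median marker.

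**Figure D4:**
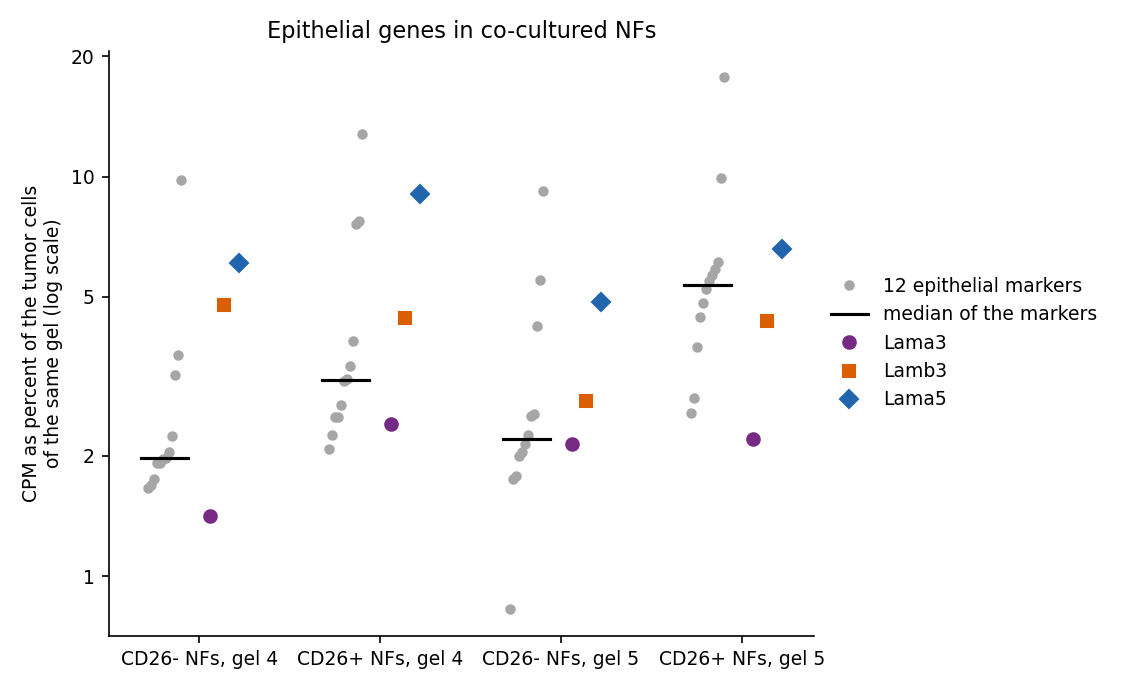
CPM in each co-cultured NF library as a percent of the CPM in tumor cells of the same gel (log axis), for 12 epithelial markers (gray points, median as a black line) and for Lama3, Lamb3 and Lama5. Lama3 lies under the marker median in each of the 4 libraries and Lama5 lies above it, at 4.86% to 9.03%. The highest gray point is Krt19 in every library, and in both libraries of gel 4 Lama5 lies above the other 11 markers.

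Taken by subset, 6 of 9 members rose in CD26- NFs next to tumor cells, against 16.6% of the 16231 genes tested, and 4 rose in CD26+ NFs (Lama3, Lama5, Lamb3 and Lamc1), against 19.0%. The call of Lamc1 in CD26+ NFs was lost without the CD26- NF library of gel 4 (adjusted p = 0.0644), the CD26+ NF library of gel 4 (0.103) or the CD26- NF library of gel 5 (0.060). With the tumor share subtracted, Lamb3 did not pass in CD26- NFs (adjusted p = 0.060) or CD26+ NFs (adjusted p = 0.187), and Lama3, with 0 counts left, was lower in CD26+ NFs (-6.32, adjusted p = 0.0468). Lama3 and Lamb3, at most 10 counts in the libraries grown alone, are counted here too, and the counts are a description. Lama2 rose by 2.03 in CD26- NFs (SE 0.275, adjusted p = 8.31e-05) and had a change of 0.62 in CD26+ NFs (SE 0.257, adjusted p = 0.0769). Lamb2 rose by 1.14 in CD26- NFs (SE 0.219, adjusted p = 0.00131), beside 0.46 in CD26+ NFs (SE 0.212, adjusted p = 0.106). Each subset had 1 library grown alone, which was assumed to vary like the co-cultured pairs that gave the spread.

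Whether the subsets responded unequally was tested directly. None of the 9 members passed (0 called, 3 with an unadjusted p under 0.05), against 0.376% of the genes tested. Lama2 had the lowest p, with a response lower in CD26+ NFs by 1.41 on the log2 scale (SE 0.357, adjusted p = 0.152). In the paired fit, with gel as a replicate block, Lama2 passed at -1.38 (adjusted p = 0.00103), 1 of 9 members against 1.01% of genes lower in that fit. DESeq2 also gave 1 of 9, Lama2 (adjusted p = 0.0452).

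To ask whether the subsets themselves differed, both were compared in gels 1, 4 and 5. None of the 9 members passed (0 called, 1 with an unadjusted p under 0.05, and 0 by DESeq2), against 7.53% of the 15013 genes tested in either direction. The log2 differences, CD26+ minus CD26-, ran from -0.54 for Lama2 (SE 0.273, adjusted p = 0.256) to 0.63 for Lama5 (SE 0.275, adjusted p = 0.194). Lama4, Lamb1, Lamb2, Lamc1 and Nid1 had differences of -0.29 to -0.17. The median of the members was -0.20, beside 0.004 over all genes tested. Without gel 1, Lama2 alone passed (-0.99, adjusted p = 0.014).

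Within the co-culture, Lama2 was lower in CD26+ NFs in both gels, with 92.6 against 138 CPM in gel 4 and 99.4 against 199.986 CPM in gel 5. The log2 difference was -0.999 (SE 0.204, adjusted p = 0.0105), and Lama2 was the only one of 9 members that passed, against 2.53% of genes lower. The direction was the opposite in NFs alone, with 64.2 CPM in CD26+ against 43.7 CPM in CD26- NFs. The call was lost when the CD26+ NF library of gel 4 (adjusted p = 0.221), the CD26- NF library of gel 5 (adjusted p = 0.309) or the CD26+ NF library of gel 5 (adjusted p = 0.199) was left out. Lamb2, at -0.52 (SE 0.170, adjusted p = 0.0951), passed only in the paired fit with gel as a replicate block (-0.51, adjusted p = 0.022) and by DESeq2 (-0.52, adjusted p = 0.0375). With the block, 2 of 9 members were lower, against 7.99% of genes in that fit.

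**Figure D5:**
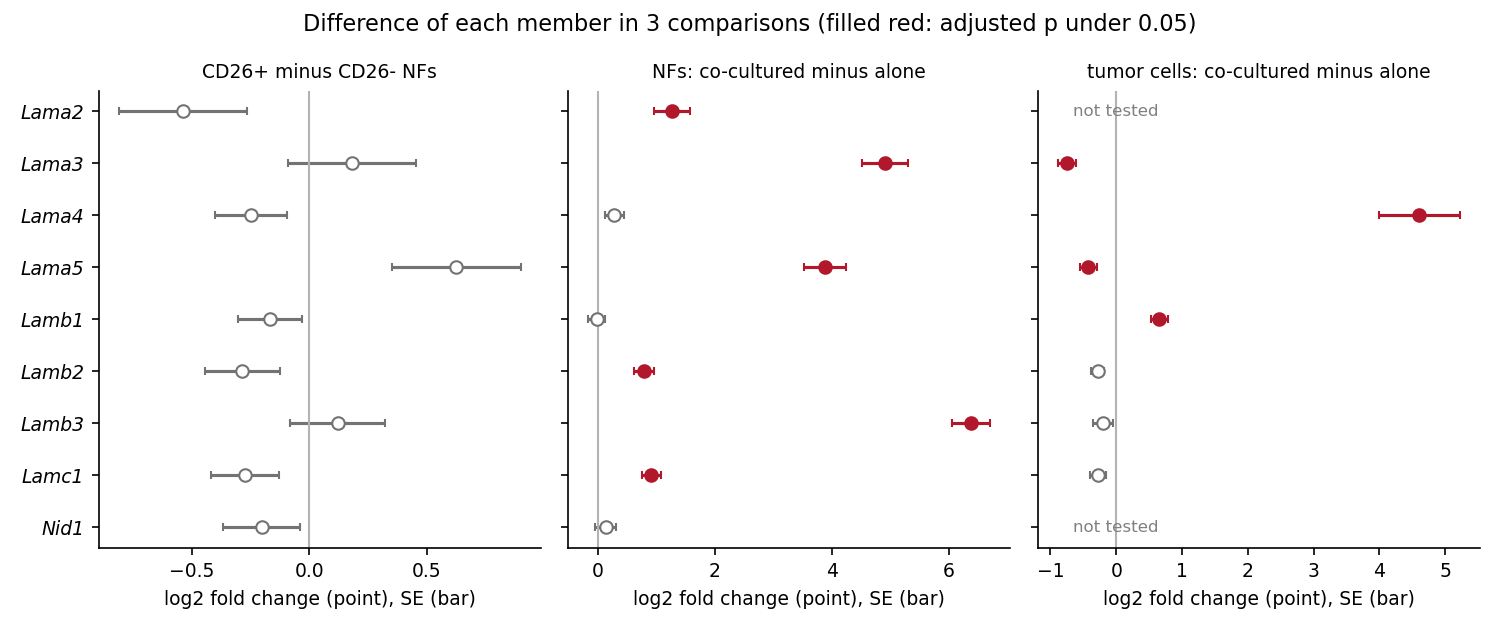
Log2 fold change (point) and its SE (bar) of each member for CD26+ minus CD26- NFs, for co-cultured minus alone NFs and for co-cultured minus alone tumor cells, each panel on its own axis. Filled red points passed an adjusted p of 0.05, and Lama2 and Nid1 were too low to be tested in tumor cells. No member is filled in the left panel, 6 are in the middle and 4 on the right.

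To ask whether tumor cells changed these genes next to NFs, the 4 tumor libraries were compared with line and culture as terms. Of the 9 members, 7 passed the filter on low counts, which left out Lama2 and Nid1. Lamb1 and Lama4 rose, 2 of 7 against 10.8% of the 13197 genes tested (Lama4 reached the filter only through the co-cultured libraries, so its call is no support), and Lama3 and Lama5 fell, 2 of 7 against 11.5%. The median of the 7 was -0.28, beside 0.01 over all genes tested. Lamb2 (-0.28), Lamb3 (-0.20) and Lamc1 (-0.28) did not pass, with adjusted p of 0.0827, 0.396 and 0.131.

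Lamb1 rose from 904 to 1495 CPM with line 13-MCB-17 and from 898 to 1397 CPM with line 10-SJK-221, by 0.66 (SE 0.126, adjusted p = 0.00752). Lama3 fell from 1392 to 761 CPM and from 1389 to 931 CPM, by 0.75 (SE 0.137, adjusted p = 0.00604). Lama5 fell from 1863 to 1385 CPM and from 1393 to 1080.0 CPM, by 0.42 (SE 0.130, adjusted p = 0.04996), just past the threshold. Both lines moved in the same direction in each of these genes. For Lama5, the level of line 10-SJK-221 alone was about that of co-cultured line 13-MCB-17.

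Lama4 rose from 4 counts to 85 counts with line 13-MCB-17 (0.217 to 4.81 CPM) and from 0 to 16 counts with line 10-SJK-221 (0.913 CPM). The pooled ratio was 24.5 (95% counting interval 9.27 to 91.5), and the fitted log2 change of 4.61 (SE 0.614, adjusted p = 0.00146) depends on the prior count. Beside it, the fibroblast markers in the co-cultured tumor cells stood at a median of 0.171% of the NFs of gel 4 (range 0% to 8.94%) and 0.164% of those of gel 5 (0.0396% to 9.92%). Lama4 stood at 1.01% and 0.163%. After subtraction of the median share, 71 of the 85 counts were left in gel 4 and 0 of the 16 in gel 5, and Lama4 was no longer tested. Nid1 had 9 and 13 counts in the co-cultured tumor cells, 0.0272% and 0.0468% of the level in the NFs of the gel.

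The tests within tumor cells had 1 residual degree of freedom among 4 libraries. With line left out of the model, 0 of the 7 members passed, as did 0 genes of the whole table. In a fit of all 10 libraries, in which NFs share in the estimate of the spread, Lama4 (adjusted p = 0.000637) and Lamb1 (adjusted p = 0.0222) passed, and Lama3 (adjusted p = 0.0857) and Lama5 (adjusted p = 0.469) did not. Leaving out any 1 of the 4 tumor libraries from that fit left 0 or 1 of the members past the threshold.

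Between the lines, 4 of the 7 members were lower in 10-SJK-221 than in 13-MCB-17, against 8.54% of genes lower. Lama4, among these, reached the filter on low counts only through the co-cultured libraries, so the count of 4 is a description. Lamc1 was at 618 against 419 CPM alone and 485 against 377 CPM in co-culture (-0.54, SE 0.118, adjusted p = 0.0192). Lamb2 was at 173 against 129 CPM and 139 against 113 CPM (-0.44, SE 0.101, adjusted p = 0.0236). Lama5 differed by -0.46 (SE 0.130, adjusted p = 0.0484) and Lama4 by -2.55 (SE 0.529, adjusted p = 0.0151) on the low counts given above. In the fit of all 10 libraries 1 of the 4 calls was left (Lama4), and by DESeq2 2 were left (Lama5 and Lamc1). RLE scaling and subtraction of the NF share from tumor cells each left 3.

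The response of NFs and that of tumor cells were then compared in 1 fit of all 10 libraries. Lama3, Lama5, Lamb2, Lamb3 and Lamc1 had the higher response in NFs, 5 of 9 against 16.9% of the 15878 genes tested, and Lama4, Lamb1 and Nid1 had the higher response in tumor cells, 3 of 9 against 14.4%. Lama3 and Lamb3 held at most 10 counts in either NF library grown alone. Lama4 and Nid1 held at most 4 counts in either tumor library grown alone. The parts of Lama3, Lamb3, Lama4 and Nid1 in these counts are no support. For Lamc1 the difference was 1.17 (SE 0.219, adjusted p = 0.0028) and for Lamb2 1.05 (SE 0.243, adjusted p = 0.00867). Without the tumor library of gel 2 or gel 4, Lamb2 no longer passed (adjusted p = 0.0666 and 0.0689). For Lamb1 the difference was -0.69 (SE 0.199, adjusted p = 0.0245), a call lost without the CD26- NF library of gel 1 (adjusted p = 0.0893) or any 1 of the 4 tumor libraries (adjusted p from 0.110 to 0.148). Lama2 did not pass (-1.65, SE 2.57, adjusted p = 0.689). This comparison shares all libraries with those of culture above. Nid1 rests on 5 and 22 counts in tumor cells alone and co-cultured, its call was lost without any of several single libraries (CD26- NFs of gels 1, 4 and 5, CD26+ NFs of gel 5 and each tumor library, adjusted p from 0.0605 to 0.262), and its sign turned when the NF share was subtracted from the tumor libraries. That of Lama3 turned when the tumor share was subtracted from the NF libraries, which left 0 counts, and Lamb3 then no longer passed (4.75, adjusted p = 0.0548). The ratio of Lamb1 to Lamb2 per kb was 0.829 to 1.28 in co-cultured NFs and 6.58 and 7.58 in co-cultured tumor cells.

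Lama1, Lamc3 and Nid2 are other laminin and nidogen genes. Lamc3, a gamma chain known from retina and nerve, rose from 13 and 3 counts (0.807 and 0.211 CPM) in NFs alone to 145 and 136 CPM for co-cultured CD26- NFs, with 114 and 109 CPM for their CD26+ counterparts. Tumor cells held at most 1.03 CPM of it. The fitted log2 change in NFs was 7.96 (SE 0.272, adjusted p = 8.69e-08), for a gene that passed the filter through the co-cultured libraries. Its pooled ratio, co-cultured NFs to NFs alone, was 241 (148 to 421). Its exons overlap a gene on the opposite strand over 6.27% of their bases.

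Nid2, the second nidogen, fell in co-cultured NFs, from 368 and 464 CPM to 64.8 and 72.0 CPM for CD26- NFs, with 43.4 and 39.7 CPM for their CD26+ counterparts (-2.94, SE 0.213, adjusted p = 6e-06). The ratio of Nid1 to Nid2 per kb was 3.75 and 2.28 in NFs alone and 16.7 to 35.0 in co-cultured NFs. Tumor cells held 0 counts of Nid2 in all 4 libraries. Of its exonic bases, 8.45% overlap a gene on the opposite strand (Rtraf). Lama1, the alpha chain of early embryos, had less signal among CD26+ than among CD26- NFs of each gel, with 5.47 against 16.3 CPM, 9.25 against 16.8 CPM and 7.85 against 19.0 CPM (-1.38, SE 0.182, adjusted p = 0.00464).

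Of 23 basement membrane partners (collagen IV chains, perlecan, agrin and others), 22 were tested in NFs, and 9 rose and 7 fell in co-culture (median log2 change 0.41), beside 25.9% and 22.9% of all genes. The called partners with the highest change were Papln (3.77) and Col4a3 (3.19), both under 3 CPM in every NF library and at 5 counts or fewer in each library grown alone. They passed the filter through the co-cultured libraries, so their part of the 9 is no support. Those with the lowest were Smoc1, a calcium-binding matrix protein, which fell from 51.6 and 24.6 CPM to 1.82 to 5.02 CPM (-3.48, SE 0.381, adjusted p = 7.06e-05), and Col4a6 (-3.45), under 2 CPM throughout, which passed the filter through NFs alone. The main collagen IV chains Col4a1 (0.44, adjusted p = 0.113) and Col4a2 (0.15, adjusted p = 0.565) did not pass in NFs.

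In tumor cells 15 partners were tested, and 4 rose and 4 fell, beside 10.8% and 11.5% of all genes. Col4a2 fell from 641 to 227 CPM with line 13-MCB-17 and from 388 to 175 CPM with line 10-SJK-221 (-1.35, SE 0.128, adjusted p = 0.000326). Col4a1 fell from 809 to 386 CPM and from 571 to 385 CPM (-0.84, SE 0.147, adjusted p = 0.00488). Papln (4.10) and Frem1 (1.11) had the highest changes, and Papln stayed under 7 CPM, with 7 and 3 counts in the lines grown alone, so that it passed the filter through the co-cultured libraries and its call is no support. Frem1 was at 0 CPM in line 13-MCB-17 in both cultures, and its change rests on line 10-SJK-221, with 14.3 CPM alone and 31.1 CPM in co-culture. Between the subsets, 2 of 22 partners were higher in CD26+ NFs (Col18a1 by 0.84 and Col4a5 by 0.67) and 3 were lower, beside 3.93% and 3.6% of all genes, with Npnt (-1.52, adjusted p = 0.00121) and Frem1 (-1.31, adjusted p = 0.0195) the lowest.

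All 7 laminin receptors rose in co-cultured NFs (median log2 change 3.69), against 25.9% of all genes tested. Itga6 (4.66) and Itga3 (4.49), integrin alpha chains that bind laminin, had the highest changes, and Dag1, dystroglycan (0.54, adjusted p = 0.00815), and Itgb1, integrin beta-1 (0.89, adjusted p = 0.00126), the lowest. Itga6 was at 2.48 and 2.04 CPM in NFs alone, and its product is CD49f, on whose absence from the cell surface NFs had been sorted before culture. The part of that sort in its RNA level was not tested. In co-cultured NFs Itga6 stood at 13.0% to 16.7% of the tumor cells of the gel, above the highest epithelial marker in 3 of the 4 libraries. Itga3 stood at 2.30% to 4.23% and Itgb4 at 2.52% to 4.70%, within the range of the markers. Bcam stood at 5.61% and 5.85% in gel 4 and 10.0% and 11.6% in gel 5 (CD26- and CD26+ NFs), above the highest marker only in CD26- NFs of gel 5. Itgb1 was at 1245 to 1612 CPM in co-cultured NFs, against 1119 and 1217 CPM in the tumor cells beside them. In tumor cells 2 of 7 receptors rose, Itga7 (1.46) and Bcam (0.64), and 1 fell, beside 10.8% and 11.5% of all genes. Itga6 fell from 689 to 322 CPM and from 684 to 424 CPM (-0.92, SE 0.137, adjusted p = 0.00239), and between the subsets 0 of 7 receptors passed (2 with an unadjusted p under 0.05), beside 7.53% of all genes.

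Genes with the most similar pattern over the 10 libraries were found by Pearson correlation of log2(CPM + 1) among genes with a mean of at least 10 CPM. The nearest genes were Epb41l3 and Gpm6b for Nid1 (r = 0.999 for both), Cpq and Serping1 for Lama4 (0.999 and 0.997), Nkd2 and Fxyd6 for Lama2 (0.998 for both), Tfrc and Itgb4 for Lama3 (0.998 for both), Il1a and Pkp1 for Lamb3 (0.996 for both) and Nampt and Mipol1 for Lama5 (0.995 for both). Most of the spread behind these values is that between cell types, and the points share libraries. Lamb1, Lamb2 and Lamc1, which both cell types express, had lower values, with Thap12 (0.949) and Depdc5 (0.934), Nqo1 (0.984) and S1pr2 (0.983), and Stx11 (0.965) and Fam210b (0.949). Among the members, Lama5 and Lamb3 (0.992) and Lama4 and Nid1 (0.989) were the most alike.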

How the data were processed

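RNA from 10 sorted populations of 5 gels was made into stranded mRNA libraries and sequenced in pairs. The authors aligned reads with HISAT2 (version 2.2.1) to build GRCm38, per their processing notes, and deposited raw counts per gene. How reads were counted, with or without strand and against which annotation release, is not given in the sources used here. A further floxed allele of the tumor genotype and 1 gene of the lists are not reported here.

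Genes were tested on the deposited counts with the quasi-likelihood F test of edgeR (4.0.16, R 4.3.3), TMM scaling, filterByExpr and Benjamini-Hochberg adjustment over all genes tested, at a threshold of 0.05. Terms were subset and culture (NFs), line and culture (tumor cells), gel and cell type (shared gels), or cell type alone. DESeq2 (1.42.0), RLE scaling, 2 other filters, a replicate block, subtraction of carried-over RNA and leaving out libraries were the alternatives. The number of the gel marks cells that shared it, so by the labels gel numbers pair NF libraries. The gel 5 minus gel 4 differences of CD26- and CD26+ NFs correlated at 0.304 over 9333 genes. The tumor line also differs between these gels, so this value cannot tell the gel from the line. Log2 changes are fitted values with edgeR's prior count. Exon lengths and overlaps came from GENCODE M21, which holds 55140 of the 55486 gene IDs, 99.35% of them at the same position. Depth was 14142334 to 18408940 counts per library. Ratios of pooled CPM have exact 95% intervals, and intervals and floors cover counting error only. The fits were tested on simulated data.

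Members and lists were chosen with earlier results of these data known. All members were named whatever their p-value. Of the partners and receptors, the text gives counts and up to 2 called genes at either end. Some, such as Col4a1 and Col4a2 in NFs and Itgb4, Bcam and Itga7 in co-cultured NFs, were named outside this rule.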

Additional observations from a re-analysis of the deposited data

Results flagged for a closer look

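The response to co-culture differed between NFs and tumor cells, by a test of the difference itself (edgeR quasi-likelihood test over all 10 libraries, NF response minus tumor cell response on the log2 scale), for 8 of the 9 members, beside 31.4% of all genes tested in either direction. NFs had the higher response for Lamb3 by 6.56 (adjusted p = 4.76e-06), Lama3 by 5.63 (adjusted p = 1.98e-05), Lama5 by 4.29 (adjusted p = 8.08e-05), Lamc1 by 1.17 (adjusted p = 0.0028) and Lamb2 by 1.05 (adjusted p = 0.00867). Tumor cells had the higher response for Lama4, with a difference of -4.30 (adjusted p = 0.000289), for Nid1 with -1.88 (adjusted p = 0.0441) and for Lamb1 with -0.69 (adjusted p = 0.0245). In tumor cells Lama4 rests on 4 counts alone and 101 in co-culture, and Nid1 on 5 and 22. Lama3 and Lamb3 held at most 10 counts in either NF library grown alone. The parts of Lama3, Lamb3, Lama4 and Nid1 in the count of 8 are no support. With the tumor share subtracted from NFs, Lama3 turned to -5.58 (adjusted p = 0.00526, with 0 counts left), and Lamb3 (4.75, adjusted p = 0.0548) and Nid1 (-1.81, adjusted p = 0.0512) no longer passed. With the NF share subtracted from tumor cells, Nid1 turned to 4.41. Lamb1, Lamb2 and Nid1 each lost the call without some single libraries, with adjusted p up to 0.148, 0.0689 and 0.262. Lamb1, Lamb2 and Lamc1 had at least 113 CPM in every library. No group held 4 or more libraries, so no library was tested as an outlier.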

How the results depend on the processing

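Of 498 member values past the threshold, counted once for each alternative that gave a value, 418 stayed past it in the same direction, 76 no longer passed and 4 reversed; 5 others newly passed. Subtracting tumor carry-over from NFs reversed Lama3 in CD26- NFs (-5.98), in CD26+ NFs (-6.32) and in culture by cell type (-5.58), and left no subset difference of it in co-culture (0), since 0 counts were left in the co-cultured NFs. It also reversed Lamb3 in the subset difference over 3 gels (-1.24) and in co-culture (-1.49). Subtracting NF carry-over from tumor cells reversed culture by cell type for Lama2 (1.25) and Nid1 (4.41).

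With gel as a replicate block, 2 members passed in the subset difference in co-culture (1 without it) and 1 in subset by culture (0 without it), and DESeq2 gave the same 2 and 1; the block changed no other call, and could not be fitted for the change with culture in NFs, where gel and culture cannot be told apart. For the change of tumor cells (4 members), 0 passed with line left out of the model (and 0 of all genes), 2 with NF carry-over subtracted and 2 in a fit of all 10 libraries. For the line difference (4 members), DESeq2 and a filter of 1 CPM each gave 2, and the fit of all 10 libraries 1. The fit of all 10 libraries without omissions was added after seeing the data.

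With libraries left out in turn, members called ranged from 0 to 1 for the subset over 3 gels, the subset in co-culture, tumor cells and line, and from 5 to 8 for culture by cell type. For tumor cells this used all other libraries, and a lone sample was assumed to vary like the other groups. Values that crossed 0 ranged over -0.039 to 0.55 (Lama3) and -0.14 to 0.50 (Lamb3) for the subset over 3 gels. In co-culture they ranged over -0.25 to 0.72 (Lama3), -0.077 to 0.68 (Lama5), -0.27 to 0.0046 (Lamb1), -0.16 to 0.37 (Lamb3) and -0.23 to 0.080 (Nid1). For culture they ranged over -0.10 to 0.052 (Lamb1) and -0.11 to 0.37 (Nid1) in all NFs, over -0.22 to 0.059 in CD26- NFs and -0.017 to 0.042 in CD26+ NFs (both Lamb1), and for subset by culture over -0.60 to 0.37 (Lama3) and -0.018 to 0.26 (Lamb1). They ranged over -0.47 to 0.080 (Lamb3) for tumor cells, -0.078 to 0.26 (Lama3) and -0.41 to 0.15 (Lamb3) for line, -0.26 to 0.38 (Lamc1) for cell type alone and -2.59 to 1.26 (Lama2) for culture by cell type. None of these crossing values was past the threshold in the full data. Where no reason is given, the cause was not tested. Leaving out both NF libraries of gel 1 was not run for the change with culture, since none grown alone would be left. Depth limits Lama2, Lama4 and Nid1 in tumor cells and Lama3 and Lamb3 in NFs alone, each at 10 or fewer counts in libraries grown alone. CPM levels rest on library totals, and TMM factors ran from 0.853 to 1.11. On TMM effective library sizes, 40 member levels by group stayed within the group's SD, or the counting interval of a lone library. The other 14 moved beyond it.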

Other observations

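Outside the comparisons of the members, Lamc3 went from 3 and 13 counts in NFs alone to 1539 to 2389 counts in the 4 co-cultured NF libraries. In the same NF libraries Nid2 was at 39.7 to 72.0 CPM, against 368 and 464 CPM in NFs alone. Among partners, Col18a1, the source of endostatin, had 100.0 and 205 CPM in NFs alone, 478 and 523 CPM for CD26- NFs next to tumor cells, 931 and 1046 CPM for their CD26+ counterparts and 1911 to 2362 CPM in tumor cells, so that CD26+ NFs were above CD26- NFs in each of the 3 gels. Itga7, a laminin receptor of muscle, stood in co-cultured NFs at 34.4% and 28.2% (CD26- and CD26+ NFs of gel 4) and 51.1% and 49.0% (gel 5) of the level in tumor cells of the gel, above the highest epithelial marker in each library.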
